A study of Mus musculus with 6 samples.

Results

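Immunoglobulins are the antigen receptors of B cells and, once secreted by plasma cells, the antibodies of the gut. A chain is built from a variable segment, joined by gene rearrangement to a constant region that sets its class. Each B cell clone carries its own rearranged heavy chain and its own rearranged kappa or lambda light chain, and different clones can use the same segment. In the intestine, plasma cells sit in the lamina propria beneath and between the crypts, and the epithelium carries their antibodies into the lumen. The immunoglobulin segments described here were the probe sets of the authors' selected table whose symbol field holds Igh-6, Ighv1-72, Gm5571, Gm4964, Gm5574, Gm1077, Gm10879, Igk-V19-14, Igl-V2 or Igl-C2. All 10 symbols were found, in 11 probe sets, out of 1053 in that table and 28853 on the array. They are in that table because of their difference between genotypes, so the differences below describe them and carry no test.

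The RNA was taken by laser microdissection of crypt base epithelium from the ileum of mice aged 8 weeks, on the C57BL/6J background, after methacarn fixation and paraffin embedding of the tissue. The groups were wild type (WT) and Nod2-/-, which carries no working copy of Nod2, the gene of an intracellular receptor for bacterial cell wall fragments, with 3 Affymetrix MoGene 1.0 ST arrays each, and 100 ng of total RNA was labelled per array. The labels call the captured cells Paneth cells, the antimicrobial secretory cells of the crypt base. They do not tie a capture to an animal, so the spread between arrays may be partly technical, and the number of arrays limits the precision. Values are log2 intensities as summarised by the authors, and a difference is the Nod2-/- mean minus the WT mean.

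In a single fit of all 28853 probe sets (limma, Benjamini-Hochberg adjustment), 0 probe sets had an adjusted p under 0.05, which is 0% of the array, and 1106 (3.83%) had an unadjusted p under 0.05. No immunoglobulin probe set therefore passed. The median array intensity lay between 34.5 and 35.4, or between 5.11 and 5.15 on the log2 scale. Across the array 1.23% of probe sets averaged at least 0.41 lower in Nod2-/- on the log2 scale and 2.11% at least that much higher. That size is the fold threshold in the header of the authors' table, which holds all 962 such probe sets and 91 with differences from 0.33 to 0.41. The header also names an unpaired t test with a p of at most 0.05 and a smaller fold. Which rule admitted the 91 was not checked. Of the 11 immunoglobulin probe sets, 8 averaged lower in Nod2-/- and 3 higher, with a median log2 difference of -0.81, beside -0.01 over all probe sets. The differences closest to 0 among them were -0.51 and 0.57, and probe sets outside the table carry no names here. Gm5574 and Gm10879 lay below the array's median on 5 of 6 arrays. Igh-6, Gm5571, Igk-V19-14 and the probe set of Igl-V2 and Igl-C2 did so on 4, Gm4964 on 3 and the rest on 0. In 2 of the 11 the WT and Nod2-/- arrays did not overlap, both with Nod2-/- lower, where 4.64% of all probe sets show that pattern and 3.42% the opposite one. In bulk samples such as these, fewer cells of a type and less RNA per cell cannot be told apart.

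The names of these probe sets are those of an old annotation. RefSeq gives a current symbol for all 10. Gm4964 is Igkv1-135, Gm5571 is Igkv9-120, Gm10879 is Igkv4-91, Gm1077 is Igkv4-58 and Igk-V19-14 is Igkv6-14, all kappa variable segments. Gm5574 is Igkv12-47, a kappa variable segment listed as a pseudogene. Igl-V2 and Igl-C2 are the lambda variable segment Iglv2 and the lambda constant region Iglc2, and Igh-6 is Ighm, the constant region of IgM. Segments of a family are near copies, so a probe set can also bind transcripts of related segments, and which segments contribute to a signal was not analysed here.

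The heavy chain locus held 4 of the 11 probe sets, all on the minus strand of chromosome 12 in mm9. Ighv1-72, a heavy chain variable segment, is named on 3 of them. The probe set named for Ighv1-72 alone (chromosome 12, 116699210 to 116699642) read 6.96, 7.93 and 6.63 in WT replicates 1, 2 and 3, and 6.20, 5.45 and 6.03 in Nod2-/- replicates 1, 2 and 3. Every WT array lay above every Nod2-/- array, and WT replicate 2 was the highest. Its means were 7.17 ± 0.67 (SD, n = 3) in WT and 5.89 ± 0.40 in Nod2-/-, a log2 difference of -1.28.

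A second probe set, shared by Ighv1-72 and LOC631518, covers a long stretch of the variable region (chromosome 12, 116745673 to 116996669). It read 8.62, 9.78 and 8.37 in WT and 8.45, 7.01 and 8.08 in Nod2-/-. The genotypes overlapped, because Nod2-/- replicate 1 lay above WT replicate 3. The log2 difference was -1.08, and -0.65 without WT replicate 2. The third, which lists Ighv1-72 beside LOC641089, LOC382693 and LOC546230 (chromosome 12, 116861288 to 116861853), lies inside that stretch, so the pair may share target sequence. It read 6.56, 7.84 and 6.82 in WT and 7.03, 6.08 and 6.58 in Nod2-/-. WT replicate 2 stood above the rest, and the other 5 arrays were mixed. Its log2 difference of -0.51 became -0.13 without WT replicate 2. The 3 probe sets named for the same segment thus had differences from -1.28 to -0.51, and on all 3 the highest array was WT replicate 2 and the lowest was Nod2-/- replicate 2.

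The probe set named Igh-6 (chromosome 12, 117190725 to 117191057) read 4.38, 6.65 and 5.32 in WT and 4.32, 4.37 and 4.87 in Nod2-/-. WT replicates 2 and 3 were the highest arrays, while WT replicate 1 lay among the Nod2-/- arrays. The means were 5.45 ± 1.14 in WT and 4.52 ± 0.30 in Nod2-/-, a log2 difference of -0.93, and -0.33 without WT replicate 2. The position goes against the name. In RefSeq the IgM constant region has lower coordinates than Ighv1-72, whereas this probe set has higher coordinates than the Ighv1-72 probe set, and it spans 333 bases. It is therefore called by its symbol here and not read as a constant region.

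**Figure D1:**
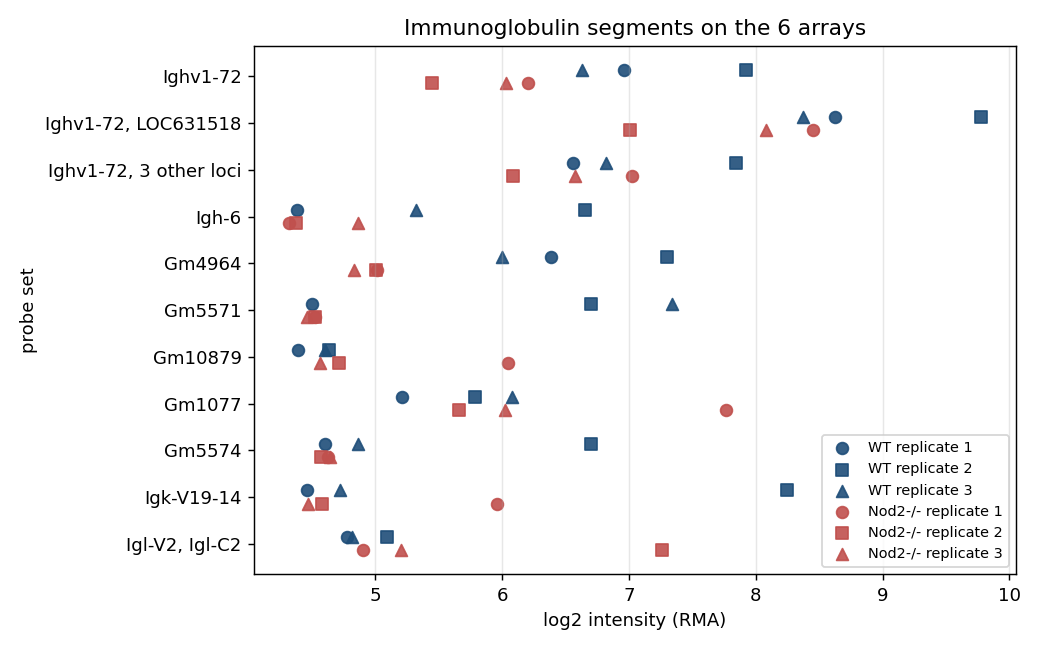
Log2 intensity (horizontal axis) of the 11 immunoglobulin probe sets (rows) on each of the 6 arrays, with WT in blue and Nod2-/- in red and a symbol per replicate number. WT replicate 2 (blue square) is the highest array in 7 of the 11, Nod2-/- replicate 1 (red circle) in 2, and WT replicate 3 and Nod2-/- replicate 2 in 1 each.

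The kappa locus held 6 of the 11, on chromosome 6, of which 4 averaged lower in Nod2-/- and 2 higher. Gm4964 (67560201 to 67560536, plus strand) read 6.39, 7.30 and 6.00 in WT and 5.01, 5.0 and 4.83 in Nod2-/-. Its arrays did not overlap between genotypes. The means were 6.56 ± 0.67 in WT and 4.95 ± 0.10 in Nod2-/-, a log2 difference of -1.61 that lay between -1.89 and -1.24 when any single array was left out. The Nod2-/- arrays differed from each other by 0.18 at most, against 1.30 in WT. All 3 Nod2-/- values lay below the array medians of 5.11 to 5.15. Whether low signal narrowed their spread was not tested.

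Gm5571 (67999977 to 68000453, plus strand) had the most negative difference of the 11, -1.68. It read 4.50, 6.70 and 7.34 in WT and 4.52, 4.53 and 4.46 in Nod2-/-. WT replicates 2 and 3 were high, and WT replicate 1 was as low as the Nod2-/- arrays. The means were 6.18 ± 1.49 and 4.50 ± 0.04, and the difference was -2.52 without WT replicate 1 and -1.10 without WT replicate 3.

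Gm5574 (69676569 to 69677119, minus strand) read 4.60, 6.70 and 4.86 in WT and 4.62, 4.57 and 4.64 in Nod2-/-. WT replicate 2 alone was high, 3.59-fold above the next array, and the other 5 lay between 4.57 and 4.86. The log2 difference was -0.78 with all arrays and -0.12 without that array. Igk-V19-14, on a probe set shared with LOC100047162 (70356459 to 70356749, minus strand), read 4.46, 8.25 and 4.73 in WT and 5.96, 4.58 and 4.47 in Nod2-/-. WT replicate 2 was 4.89-fold above the next array, Nod2-/- replicate 1, and 13.8-fold above the lowest. Its log2 difference was -0.81 with all arrays and 0.41 without WT replicate 2, the only change of sign among the 11 when 1 array was left out.

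The remaining kappa pair averaged higher in Nod2-/-, through Nod2-/- replicate 1. Gm1077 (69450249 to 69450780, minus strand) read 5.21, 5.78 and 6.07 in WT and 7.77, 5.66 and 6.03 in Nod2-/-. Nod2-/- replicate 1 was 3.24-fold above the next array, and the other Nod2-/- arrays lay among the WT ones. The log2 difference was 0.79, and 0.15 without that array. Gm10879 (68718550 to 68718816, minus strand) read 4.39, 4.64 and 4.60 in WT and 6.05, 4.72 and 4.56 in Nod2-/-. Again Nod2-/- replicate 1 stood alone, 2.52-fold above the next array, and without it the log2 difference of 0.57 became 0.10.

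The lambda locus gave 1 probe set, named for both Igl-V2 and Igl-C2 and reaching from the constant region to the variable segment (chromosome 16, 19198647 to 19260937, minus strand). It read 4.78, 5.09 and 4.82 in WT and 4.90, 7.26 and 5.20 in Nod2-/-. Nod2-/- replicate 2 was 4.17-fold above the next array, and it was the array on which the probe sets of Ighv1-72 were lowest. The means were 4.90 ± 0.17 in WT and 5.79 ± 1.29 in Nod2-/-. The log2 difference of 0.89 became 0.16 without that array. The 3 probe sets with a higher mean in Nod2-/- therefore each rested on a single Nod2-/- array, and not all on the same one.

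**Figure D2:**
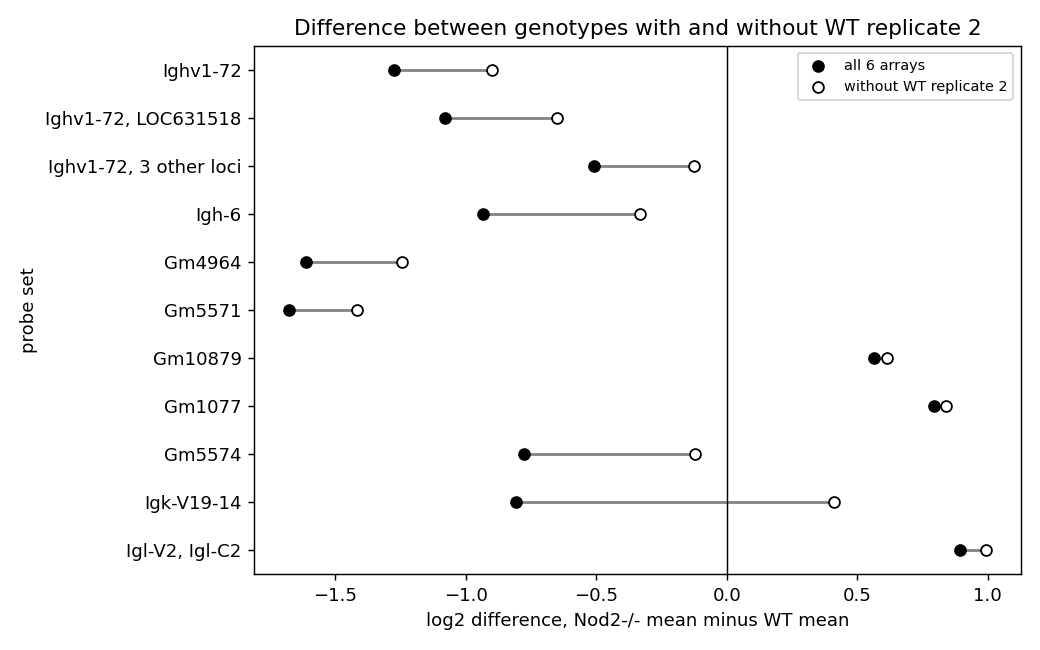
Log2 difference between genotypes (Nod2-/- mean minus WT mean, horizontal axis) of the 11 immunoglobulin probe sets with all 6 arrays (filled) and without WT replicate 2 (open). The 8 negative differences all move towards 0, from a median over the 11 of -0.81 to -0.13, and Igk-V19-14 crosses 0. WT replicate 2 lay above the WT mean in all 8, so leaving it out could only raise these differences.

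Only Igh-6 and the shared Igl-V2 and Igl-C2 probe set carry the name of a constant region, and neither stands for a constant region alone. Constant and variable names were compared within each genotype, as the deviation of each array from its genotype's mean. Igh-6 deviated by -1.07, 1.20 and -0.13 in WT replicates 1 to 3, and the 3 heavy chain variable probe sets by -0.34, 0.79 and -0.45 on average. Both were highest in WT replicate 2. In Nod2-/- the deviations were -0.20, -0.15 and 0.35 for Igh-6 and 0.46, -0.59 and 0.13 for the heavy variable probe sets, so the arrays did not rank alike. The lambda probe set deviated by 1.47 in Nod2-/- replicate 2, where the kappa probe sets deviated by -0.27 on average. Over both constant names and all 9 variable probe sets, constant minus variable was 0.03, -0.14 and 0.11 in WT, and -1.06, 1.04 and 0.02 in Nod2-/-. Each value averages 2 unlike probe sets, so a small one does not mean that constant and variable names moved together. In WT replicate 2 Igh-6 deviated by 1.20 and the lambda probe set by 0.20, beside 0.84 for the 9 variable probe sets.

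WT replicate 2 had the highest mean over the immunoglobulin probe sets. Over the 11 probe sets the mean log2 intensity was 5.53, 6.97 and 5.96 in WT and 5.89, 5.38 and 5.43 in Nod2-/-, which gives 6.15 ± 0.74 (SD, n = 3) and 5.57 ± 0.28. WT replicate 1 lay within the range of the Nod2-/- arrays. The spread within WT reached 4-fold in 4 of the 11, where 0.319% of all probe sets do, and within Nod2-/- in 2 of the 11, where 0.281% do. The median range over the WT arrays was 1.30 on the log2 scale, beside 0.20 over all probe sets, and over the Nod2-/- arrays 0.94, beside 0.19. The typical segment thus differed more between arrays of 1 genotype than the typical probe set of the whole array did. Choice on the genotype difference can favour probe sets with a wide spread, so the 2 were not chosen alike. No array was 2-fold above the probe set's lowest in 26767 of all 28853, in 330 of the table's 1053 and in 0 of the 11.

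WT replicate 2 was the highest array in 7 of the 11, against 12.8% of all probe sets. It was at least 2-fold above every other array in 4 of them, namely Igh-6, the probe set of Ighv1-72 and LOC631518, Gm5574 and Igk-V19-14, against 0.0728% of all probe sets, or 21. Nod2-/- replicate 1 exceeded every other array 2-fold in 2 (0.132% of all) and Nod2-/- replicate 2 in 1 (0.0832%). The table is chosen on the difference between genotypes, and of its 1053 probe sets 19 had WT replicate 2 at least 2-fold above the rest.

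The authors' table holds 13 further probe sets of the immunoglobulin loci, all those within 1 Mb of the 11 apart from Ptprn2, a receptor phosphatase gene beside the heavy chain locus. Of the 13, 4 lie at the heavy chain locus and 9 at the kappa locus, and 4 have no symbol. Of these, 12 averaged lower in Nod2-/- and 1 higher, with a median of -0.61 and a range from -1.10 to 0.64, and in 0 of them did the arrays of the genotypes stand apart. WT replicate 2 was the highest array in 11 and at least 2-fold above every other array in 10. Over the table's 1053 probe sets, these included, the counts were 113 and 19. The 13 are in the table for their difference between genotypes, which 1 high WT array can make. Their counts therefore describe them only. The spread over the WT arrays reached 4-fold in 10 of the 13.

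The largest spread of these was that of a probe set named Igk, for the kappa complex as a whole (chromosome 6, 68581954 to 68582421). It read 4.38, 8.88 and 4.61 in WT and 6.28, 4.51 and 5.81 in Nod2-/-. WT replicate 2 was 6.06-fold above the next array, and the log2 difference of -0.42 became 1.04 without it. The probe set V165-D-J-Cmu, an IgM variable region (chromosome 12, 116446306 to 116446738), read 4.48, 8.11 and 4.88 in WT and 5.39, 5.03 and 4.85 in Nod2-/-. Its difference was -0.74, and 0.41 without WT replicate 2. A probe set without a symbol (chromosome 6, 70264886 to 70265466) had the highest single-array excess of the 13, with WT replicate 2 at least 8.27-fold above the rest.

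Exceptions were the probe set of Igk-V19-20 and Igk-V28, which was highest in WT replicate 3 at 6.31, 2.57-fold above the next array, a pattern seen in 0.0485% of all probe sets, and a probe set without a symbol (chromosome 6, 70538476 to 70539444), which was highest in Nod2-/- replicate 1 at 7.09. The latter shares its high array with Gm1077 and Gm10879. Without WT replicate 2, 4 of the 13 averaged lower and the median was 0.087, whereas 7 of the 11 above still did. Over the array as a whole, 53.5% of probe sets averaged lower in Nod2-/-.

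**Figure D3:**
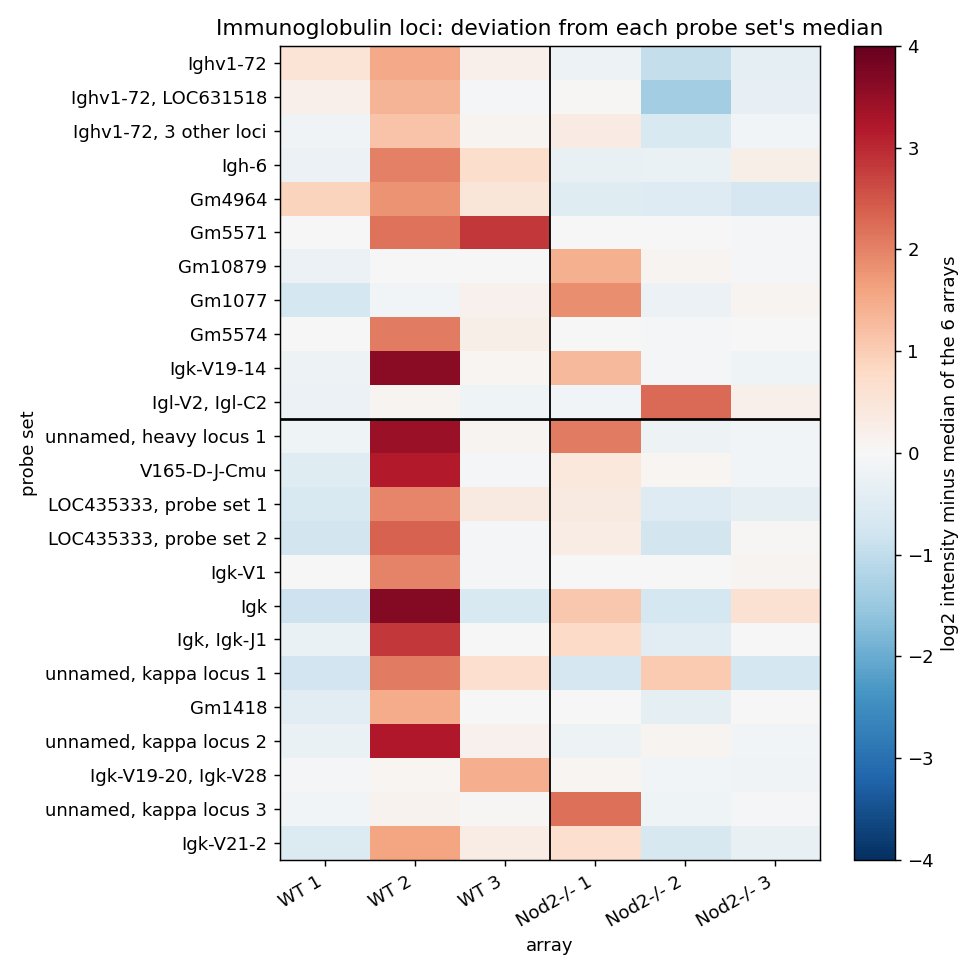
Log2 intensity minus the median of the 6 arrays (colour) for the 11 immunoglobulin probe sets (above the line) and the 13 others of the heavy chain and kappa loci (below), with WT arrays left and Nod2-/- arrays right. WT replicate 2 is the highest array in 18 of the 24 rows, and single high arrays also appear for WT replicate 3 and for Nod2-/- replicates 1 and 2.

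Together, WT replicate 2 was at least 2-fold above every other array in 14 of the 24 probe sets, all chosen by their genotype difference. On the whole array 21 probe sets had that pattern. Besides the 14 they were 1 probe set without name or position here, whose identifier lies between those of the kappa probe sets on the plus strand, and 6 others, among them Cspp1 and Ppp1r12b, described below. At a 3-fold excess, a threshold chosen after the data were seen, 9 of 10 such probe sets on the array were among the 24. Of the 6 arrays, WT replicate 2 was the highest for the fewest probe sets, 3686 of 28853.

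**Figure D4:**
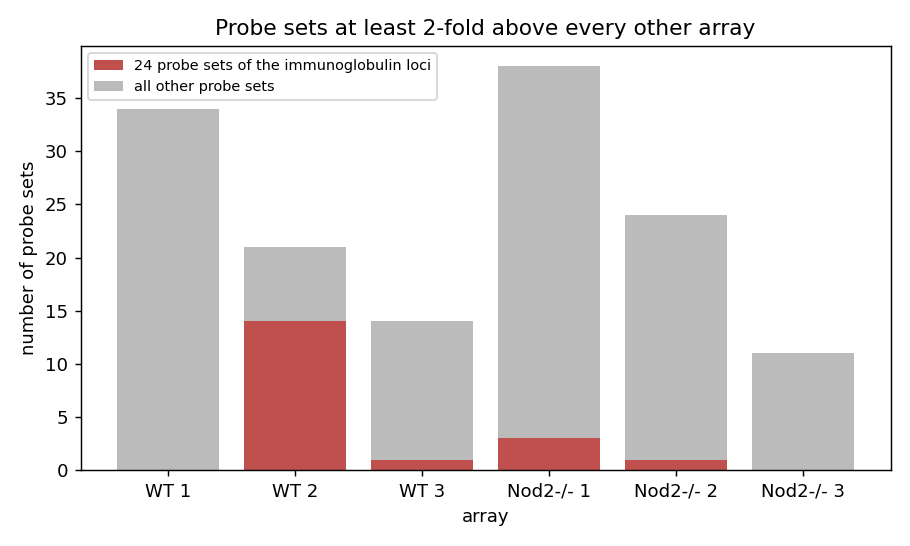
Number of probe sets (vertical axis) whose value on the named array was at least 2-fold above every other array, with the 24 probe sets of the immunoglobulin loci in red and all others in grey. In WT replicate 2 the 24 give 14 of 21, and in Nod2-/- replicate 1 they give 3 of 38.

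In the authors' table the arrays of replicate 1, WT and Nod2-/- alike, are named with a date-like number that differs from the one on replicates 2 and 3, without a word on what it dates. Within the second, 9 of the 11 averaged lower in Nod2-/- with a median of -1.37. Within the first, with 1 array per genotype, 4 of the 11 were lower and the median was 0.021. Gm4964, the Ighv1-72 probe set, that of Ighv1-72 and LOC631518, and Igh-6 were lower on both, by -1.37, -0.76, -0.17 and -0.06 for replicate 1 and by -1.73, -1.54, -1.53 and -1.37 for replicates 2 and 3. Gm5571 and Gm5574 each differed by 0.021 for replicate 1, and by -2.53 and -1.18 for replicates 2 and 3.

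The authors' table holds 3.65% of all probe sets, and the counts of cell type genes in it stand beside that share. Of 30 plasma cell genes, 27 are not immunoglobulins, among them Jchain, Mzb1 and Sdc1, and 1 of these 27 is in the table. It is Dnajb9, a chaperone of the endoplasmic reticulum that many secretory cells make. Of the 3 immunoglobulin genes on that list, Ighm has a place only by the name Igh-6, on the probe set whose position goes against it. Dnajb9 averaged 8.02 ± 0.06 in WT and 7.60 ± 0.35 in Nod2-/-, and the WT arrays lay between 7.96 and 8.08. Nod2-/- replicate 1 lay within that range at 7.99, and Nod2-/- replicates 2 and 3 read 7.32 and 7.48. Of 20 B cell genes 0 are in it, nor are Pigr and Fcgrt, which carry antibodies across epithelium, nor any of 14 T cell genes. A gene without a place in the table was either below its thresholds or not named here, so the level of these cells was not measured by their own markers.

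Markers of other cells also differed between arrays. Of 16 myeloid and class II genes 6 are in the table, against 3.65% of all probe sets, all 6 with a higher mean in Nod2-/-, and WT replicate 1 was the lowest array for all 6. Their summed intensity was 484, 2297 and 1977 in WT replicates 1 to 3 and 2275, 1645 and 1966 in Nod2-/- replicates 1 to 3. WT replicate 2 and Nod2-/- replicate 1 had the highest sums. They also had the most of the 24 immunoglobulin probe sets at least 2-fold above every other array, 14 and 3. H2-Aa, a class II antigen presentation gene, read 6.41, 8.99 and 9.0 in WT and lay between 8.53 and 8.81 in Nod2-/-. C1qc, a complement gene of macrophages, read 6.34, 8.02 and 7.72 in WT and between 7.29 and 8.17 in Nod2-/-. WT replicate 2 did not stand apart in these 2 genes, which are only part of the 6. WT replicate 1 had the lowest mean over the 13 further probe sets of the loci, 4.82. The part of the myeloid and class II genes in the immunoglobulin differences was not tested. Of 16 Paneth cell genes 5 are in the table (Mptx1, Reg3b, Reg3g, Reg4 and Pnliprp2), against the same 3.65%, all with a higher mean in Nod2-/-. Their summed intensity ranged from 7830 to 8564 in WT and from 11747 to 18872 in Nod2-/-. The sum hides single genes, as Reg3b read 7.42, 11.42 and 10.20 in WT and between 11.32 and 11.70 in Nod2-/-. Whether these 5 genes are particular to Paneth cells was not tested. Lyz1 and the alpha-defensins have no named place in it, so the captured cell type was not checked by them.

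Among 840 probe sets of the table with 1 symbol outside these loci, the 5 whose values over the 6 arrays were most like the mean of the 11 were Ppp1r12b (Pearson r = 0.93), Psme2 (0.92), 4932438A13Rik (0.91), Iapp (0.90) and Cspp1 (0.89). Ppp1r12b encodes a subunit of myosin phosphatase, Psme2 a proteasome activator subunit, Iapp the amylin hormone and Cspp1 a centrosome and spindle pole protein. Each correlation is over 6 arrays from the table chosen on the genotype difference and is given as a description. All 5 were highest in WT replicate 2, Cspp1 at 8.73 with the other arrays between 4.83 and 5.54, and Iapp at 5.94 with the others between 4.65 and 4.99.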

How the data were processed

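Groups came from the genotype labels. The deposited intensity values of 28853 probe sets are RMA summaries according to the submitters' processing notes, on a linear scale, so log2 was taken. Array (MoGene 1.0 ST), annotation release 31 and build mm9 are given per the file headers of a second deposited table of 1053 probe sets, whose intensities equal the first within a relative tolerance of 0.001. That table's ratio, log2, p-value and signed fold score columns are the authors' own, per the file headers, and no value of them is printed. Current symbols came from RefSeq (GRCm38.p6) by Entrez number, and no sequence is shown.

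limma 3.58.1 in R 4.3.3 (lmFit, eBayes, genotype as the only term, no filter, threshold 0.05) was fitted to all probe sets and was tested on simulated data. Other values came from Python 3.11.15. Members and lists were chosen with earlier results of these data known. Named are all members, table probe sets within 1 Mb of them, plasma and B cell list genes, and the 5 most like genes. Myeloid, T cell, Paneth cell and transport lists were also counted. Single arrays left out, dates, scaling and the scale of averaging were alternatives.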

Additional observations from a re-analysis of the deposited data

How the results depend on the processing

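Of 121 recomputed differences of the 11 probe sets under 11 alternatives, 110 kept their sign and moved by less than the spread between replicates. Leaving out 1 of 3 arrays cannot move a difference by that spread, so there only a change of sign could count. Centring arrays on their median left every difference nearly as it was. The 110 is therefore no measure of stability. Within the date of replicate 1, 3 of the 11 met that mark. Without WT replicate 2, Igk-V19-14 changed from -0.81 to 0.41 (range with single arrays left out -1.48 to 0.41). Within the date of replicate 1, the median changed from -0.81 to 0.021 and 4 of 11 were lower in place of 8. There the probe set of Ighv1-72 with 3 other loci was at 0.47, Gm5571 and Gm5574 each at 0.021 and Igk-V19-14 at 1.5, and within the date of replicates 2 and 3 Gm1077 was at -0.087. The cause was not tested. With single arrays left out, the median lay between -1.23 (without WT replicate 1) and -0.13 (without WT replicate 2), and 7 or 8 of the 11 were lower. For the 13 further probe sets, alternatives chosen after the data were seen gave medians from -1.21 (without WT replicate 1) to 0.087 (without WT replicate 2) with single arrays left out, 0.97 within the date of replicate 1, where 1 of 13 was lower, and -1.49 within the date of replicates 2 and 3, where 13 of 13 were. From the ratio of mean linear intensities the median of the 11 was -1.10, and from log2 of intensity plus 32 it was -0.53.

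Constant minus variable names changed sign in WT replicate 1 (-0.12) and Nod2-/- replicate 3 (-0.078) against the median of the variable probe sets, and in WT replicate 3 (-0.0090) against kappa alone. limma called 0 to 2 probe sets with single arrays left out (2 without Nod2-/- replicate 1), 3 with low values left out and 3 with a trended and robust prior, with 0 of the immunoglobulin loci among them. With the replicate number as a block the count was 0. In this balanced design the block leaves each mean difference, and so the median of -0.81, as it is by construction, and it is not among the 11 alternatives above. Deviations of same-numbered arrays correlated at 0.20, -0.02 and 0.06 across probe sets, and those of unlike-numbered arrays between -0.20 and 0.16. The 0.20 is that of the replicate 1 arrays, which share a date-like number. The numbers were not taken as pairs. No detection calls were used, so values near the lowest intensities may understate a fold.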

Other observations

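Probe set identifiers on the strands of the heavy chain and kappa loci followed genome position in all 88 neighbouring pairs of the authors' table. In the full value table, 53 further probe sets have identifiers between those of the immunoglobulin probe sets. They carry no name or position here, what they measure is not known, and they are not in the authors' table. Of the 53, 30 averaged lower in Nod2-/- and 23 higher, beside 53.5% lower over all probe sets, with a median log2 difference of -0.016. Their differences lay between -0.38 and 0.40. The authors' table holds every probe set past 0.41, so the 53 could not lie beyond that size. Their small differences are therefore no contrast with the immunoglobulin probe sets. Of the 53, 8 ranged at least 4-fold over the 6 arrays, a share not computed over all probe sets. In 12 of the 53, WT replicate 2 was the highest array, against 12.8% of all probe sets. In 14 it was Nod2-/- replicate 3, against 4278 of all 28853. Taken with the 23 immunoglobulin probe sets of these strands, which are in the table for their difference, 50 of 76 averaged lower in Nod2-/-, with a median of -0.09, and WT replicate 2 was the highest array in 30 and at least 2-fold above every other array in 15.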
